A study of Mus musculus with 14 samples.

Results

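Immediate early genes are the transcripts that cells switch on within minutes of a stimulus, and 10 of them were followed here in the lungs of 6-day-old mice: the AP-1 genes Fos, Fosb, Jun, Junb and Atf3, the zinc-finger genes Egr1, Egr2 and Egr3, the orphan nuclear receptor gene Nr4a1, and Ier2. They were chosen by name from these gene families, each was matched to 1 probe set by its Entrez number, and they make up 10 of the 21212 probe sets of the table. Whole lungs of C57BL/6J mice were measured on 14 Affymetrix mouse Gene ST 1.0 arrays. The groups were 4 Atxn1l -/- knockouts with 4 wild types from Atxn1l intercrosses, and 3 Atxn1 -/- knockouts with 3 wild types from Atxn1 intercrosses, all at postnatal day 6 and with no treatment named. The series text names the Atxn1 knockout for both sets in its count of pairs, and the sample titles and genotype labels, which name Atxn1l for 4 knockouts, were followed. The Atxn1l probe set stood at 6.68 to 7.05 in Atxn1l knockouts and 9.29 to 9.59 in their wild types, on a log2 scale. The Atxn1 probe set stood at 10.99 to 11.04 in Atxn1 knockouts and 10.92 to 11.14 in their wild types, and since the deleted part of the gene is not named, this level does not check the label. The labels give neither the knockout alleles, nor the sex or litter of a mouse, nor which arrays form the collected pairs, so the p-values below measure only the spread between these samples.

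Immediate early genes need no new protein for their induction: growth factors, stretch, cytokines and stress act through MAP kinases on serum response factor with its ETS partners and on CREB, which already sit at the promoters. The products are themselves transcription factors, AP-1 being a dimer of a Fos or ATF protein with a Jun protein, and most of the transcripts decay quickly, so that their levels follow the recent history of the tissue, handling included. Ataxin-1 and ataxin-1-like bind the repressor Capicua, which recognises a short DNA octamer and is itself relieved by ERK signalling.

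The start regions of these genes were searched for short elements. RefSeq windows from 250 bases before to 50 bases after a transcript start (GRCm38.p6) were at hand for 7 of the 10 genes: Fos, Fosb, Jun, Junb, Atf3, Egr2 and Nr4a1. Shown are the 3 windows that hold a Capicua octamer, searched as TGAATGAA, TGAATGGA, TCAATGAA or TCAATGGA on both strands, and the Egr2 window with a CArG box, the site of serum response factor. Capitals mark a match, and all are written along the strand of the gene.
Fos, chr12:85473640-85473939, plus strand, octamer on the other strand and TATAAA: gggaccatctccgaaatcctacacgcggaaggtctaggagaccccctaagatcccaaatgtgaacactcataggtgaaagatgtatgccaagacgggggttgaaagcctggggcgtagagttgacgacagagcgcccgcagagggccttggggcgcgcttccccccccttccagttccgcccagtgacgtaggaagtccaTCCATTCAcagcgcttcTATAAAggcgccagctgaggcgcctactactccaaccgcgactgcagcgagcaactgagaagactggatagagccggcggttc
Fosb, chr7:19309996-19310295, minus strand, Egr site GCGGGGGCG and octamer on the other strand: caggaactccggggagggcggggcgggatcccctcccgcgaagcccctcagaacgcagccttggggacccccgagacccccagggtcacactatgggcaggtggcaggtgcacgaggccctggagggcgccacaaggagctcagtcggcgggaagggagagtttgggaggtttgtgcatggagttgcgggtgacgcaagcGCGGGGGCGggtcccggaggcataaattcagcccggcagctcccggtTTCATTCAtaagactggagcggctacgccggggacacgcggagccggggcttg
Nr4a1, chr15:101266596-101266895, plus strand, octamer and Egr site on the other strand: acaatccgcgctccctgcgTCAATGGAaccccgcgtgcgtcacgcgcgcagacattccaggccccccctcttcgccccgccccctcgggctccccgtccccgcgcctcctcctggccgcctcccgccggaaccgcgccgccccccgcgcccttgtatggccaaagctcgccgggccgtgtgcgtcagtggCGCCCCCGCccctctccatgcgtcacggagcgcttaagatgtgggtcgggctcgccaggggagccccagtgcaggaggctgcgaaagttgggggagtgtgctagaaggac
Egr2, chr10:67537619-67537918, plus strand, CArG box: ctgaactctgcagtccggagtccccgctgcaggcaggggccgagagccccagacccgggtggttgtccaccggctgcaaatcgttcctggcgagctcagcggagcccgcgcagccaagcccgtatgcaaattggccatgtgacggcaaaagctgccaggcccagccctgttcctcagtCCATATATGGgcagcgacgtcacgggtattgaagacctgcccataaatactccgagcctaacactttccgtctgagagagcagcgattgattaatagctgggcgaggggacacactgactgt

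The octamer lay 50 bases before the start in Fos, 3 before it in Fosb and 231 before it in Nr4a1. It stood in the windows of 3 of the 7 genes, and of 4.45% of all 27025 genes with a window. An Egr site, GCGNGGGCG on either strand, was found in Fosb and Nr4a1 and in 6.27% of all genes. The CArG box was found in Egr2 alone, in 4 of its 5 windows, and in 1.81% of all genes. No window of the 7 genes held the full cAMP response element TGACGTCA, present in 2.03% of all genes, or the AP-1 site TGACTCA, present in either orientation in 5.95%. The letters TATAAA were found in Fos and Junb and in 15.7% of all genes. In Fos they lay 33 bases before the start, and in Junb they began at the start itself. The Jun and Atf3 windows held none of the motifs searched. These matches describe letters in a short window and were not tested against the levels.

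Levels are log2 values, and the arrays of the Atxn1l and of the Atxn1 intercrosses were normalized apart, with a median probe set at 8.47 in the Atxn1l set and 9.22 in the Atxn1 set. Each knockout was therefore set against its own wild types, and a level in one set is not compared with a level in the other. Markers of alveolar type 2 cells lay between the 95.1st and 99.99th percentile of all probe sets, so the tissue read as lung, and those of liver, thymus and oesophagus at or below the 42.2nd. Heart markers lay between the 35.0th and 65.7th percentile, with array means of 8.15 to 8.55 in Atxn1l knockouts and 7.61 to 8.87 in their wild types, and of 9.01 to 9.76 in Atxn1 knockouts and 8.74 to 9.93 in their wild types. Skeletal muscle markers reached the 51.0th. The mean level of 7 neutrophil markers was 9.28 to 11.11 in Atxn1l knockouts, highest in replicate 1, and 8.47 to 9.26 in their wild types, so that all 4 knockouts stood above all 4 wild types. It was 9.69 to 9.98 in Atxn1 knockouts and 9.39 to 11.47 in their wild types, highest in replicate 3. These 2 highest arrays are called the arrays of high neutrophil markers. The mean of 8 macrophage markers was 9.40 to 10.11 in Atxn1l knockouts and 9.05 to 9.15 in their wild types. In whole lung, fewer cells of a type and less RNA per cell cannot be told apart. The number of arrays limits the precision of everything below.

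None of the 10 genes passed in either knockout, and in every gene the knockout and wild-type arrays overlapped in both sets. How many of all probe sets overlap in this way was not counted, so the overlap is only a description. Changes were tested with limma on all probe sets and called at a Benjamini-Hochberg adjusted p under 0.05, which 0.0424% of all probe sets reached in the Atxn1l knockout and 0% in the Atxn1 knockout. An unadjusted p under 0.05 was likewise reached by 0 of the 10 genes in both comparisons, against 8.50% of all probe sets for Atxn1l and 1.22% for Atxn1. That count became 1 for Atxn1l under 4 other settings and without wild type replicate 3 or 4. The gene was Egr1 each time, with changes between -0.66 and -0.33. For Atxn1 the count became 2, Nr4a1 and Atf3, without wild type replicate 3. Across the 10 genes the median log2 change was 0.01 in the Atxn1l knockout, with 6 above 0, and 0.03 in the Atxn1 knockout, with 7 above 0. The Atxn1l median was -0.01 when all arrays were normalized together or each was centred on its median. Over all probe sets the median was 0.00 for Atxn1l, with 51.3% above 0, and -0.00 for Atxn1, with 47.3% above 0. The scatter between mice of 1 genotype, described after the single genes, was wide for 4 of the 10.

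**Figure D1:**
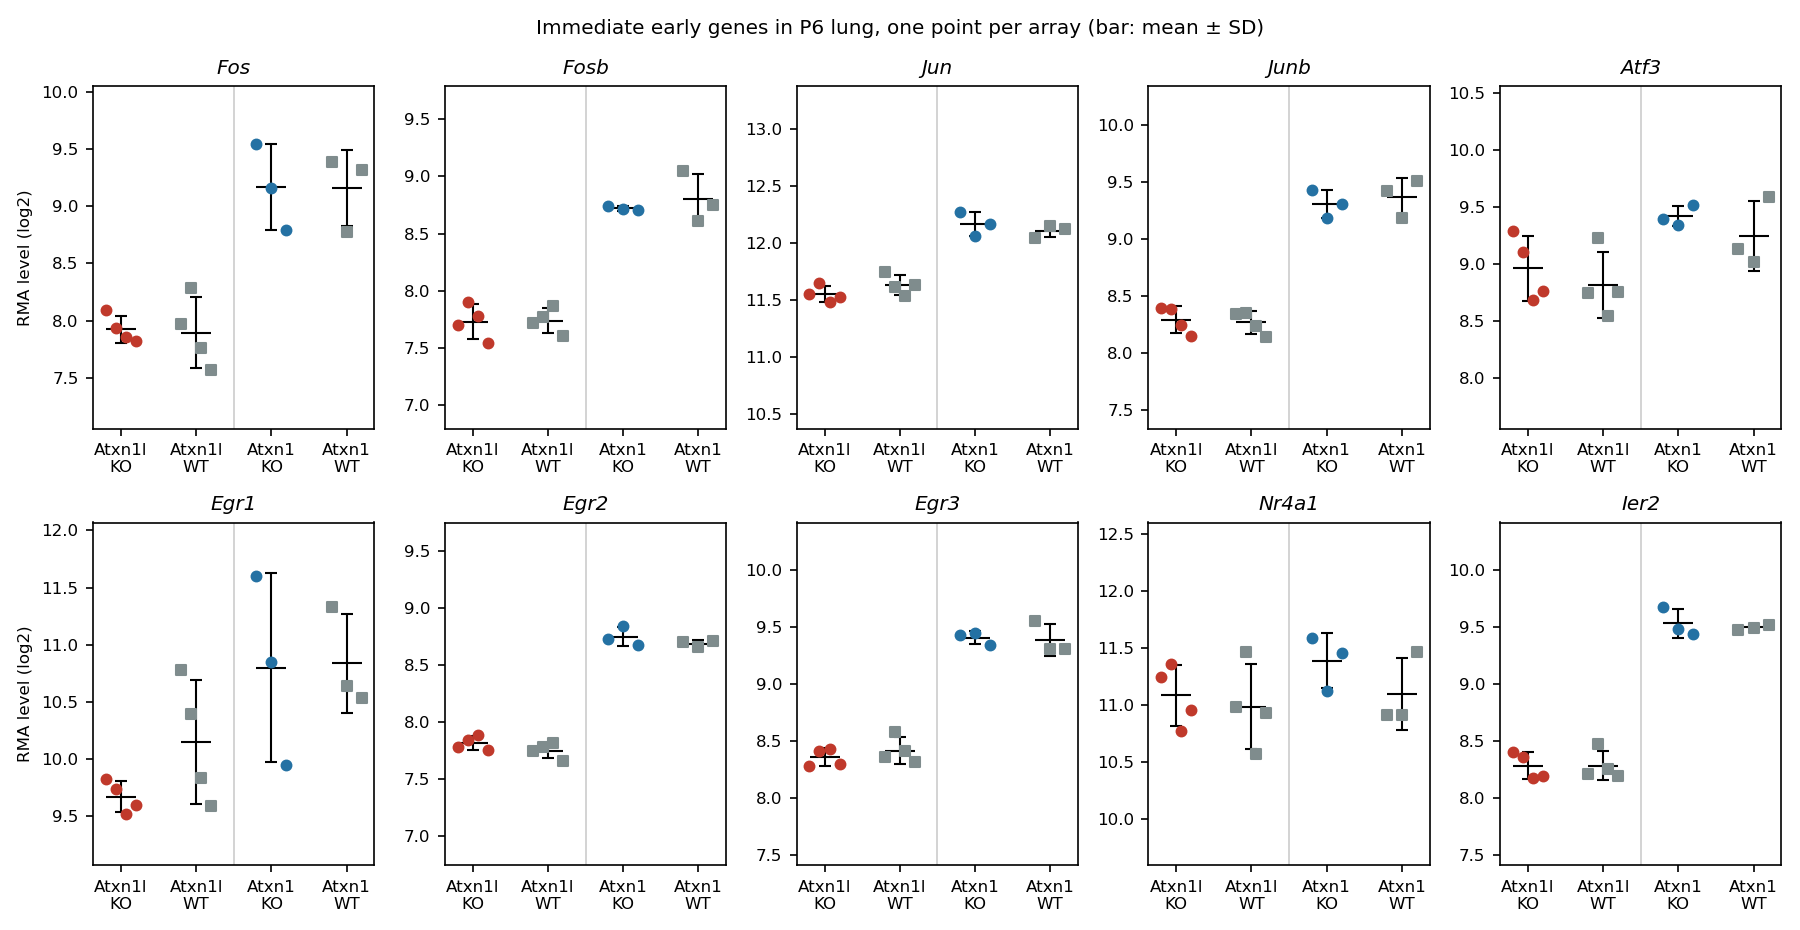
Log2 RMA level (y axis, every panel spanning the same number of log2 units) of each immediate early gene on each array, by group: Atxn1l knockout and its wild type left of the grey line, Atxn1 knockout and its wild type right of it. Points are arrays, bars are mean ± SD. Groups overlap in each panel, and Egr1 spreads most, between 9.95 and 11.60 within the Atxn1 knockouts. The higher values right of the line include the offset between separately normalized sets.

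Egr1, a zinc-finger factor induced by growth factors and stretch, gave the widest values. In Atxn1l knockouts its log2 levels were 9.82, 9.74, 9.51 and 9.60, against 10.78, 10.39, 9.83 and 9.58 in their wild types. The 4 knockout arrays lay within 0.31 of each other, whereas 3 wild types stood above all of them, replicate 3 only just, and 1 stood within their range. Egr1 thus averaged 9.67 ± 0.14 in Atxn1l knockouts and 10.15 ± 0.54 in their wild types (SD, n = 4 each), a log2 change of -0.48 (SE 0.22, 95% interval -0.97 to 0.02). That is a 1.39-fold lower mean in the knockouts, which limma did not call (unadjusted p = 0.0562, adjusted p = 0.602). The change was -0.27 on leaving out wild type replicate 1 and -0.66 on leaving out wild type replicate 4. Xist, made from the inactive X of females, was low on 3 arrays of this set, whose Egr1 levels were 9.82 to 10.78, and high on 5, with 9.51 to 9.83. Only 1 of those 3 low arrays is a knockout, and with a covariate for the Xist level the Egr1 change was -0.33 (SE 0.14, adjusted p = 0.495).

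In the Atxn1 set Egr1 stood at 11.60, 10.85 and 9.95 in knockouts, against 11.33, 10.64 and 10.54 in wild types. The knockouts held both the highest and the lowest array, and their SD was 0.83 against 0.43 in the wild types (n = 3 each). The change was -0.04 (SE 0.41, 95% interval -1.01 to 0.93, adjusted p = 0.9999), an interval that reaches from a 2.01-fold lower to a 1.91-fold higher level. Leaving out knockout replicate 1 gave -0.44 and leaving out knockout replicate 3 gave 0.39. Here again the 3 arrays with low Xist had the higher median, 11.33 against 10.54 on the 3 with high Xist, with overlap, and the change with the Xist covariate was 0.24 (SE 0.33). The part of sex in the Egr1 values was not tested beyond this covariate.

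The probe sets of the other Egr genes gave steady values. In the Atxn1l set that of Egr2, like that of Fosb, was among the dimmest 40% of all probe sets. The mean levels of Fos (7.91), Junb (8.28), Ier2 (8.29) and Egr3 (8.39) also lay below the median probe set of that set, at 8.47. In the Atxn1 set Fos (9.16), Fosb (8.76) and Egr2 (8.72) lay below the median of 9.22. Whether probe sets at such levels would show a change of their transcripts was not tested. Egr2, which controls myelination and also marks activated lymphocytes and macrophages, averaged 7.82 ± 0.06 in Atxn1l knockouts and 7.75 ± 0.07 in their wild types (SD, n = 4 each), a change of 0.07 (SE 0.05, adjusted p = 0.800). It averaged 8.75 ± 0.08 in Atxn1 knockouts and 8.69 ± 0.03 in their wild types (SD, n = 3 each), a change of 0.06 (SE 0.06). Egr3, an Egr1 relative with a role in muscle spindles and T cells, averaged 8.36 ± 0.08 in Atxn1l knockouts and 8.42 ± 0.11 in their wild types, a change of -0.06 (SE 0.07, adjusted p = 0.875). In Atxn1 knockouts Egr3 averaged 9.41 ± 0.06 and in their wild types 9.39 ± 0.14, a change of 0.02 (SE 0.08). For both genes the 95% intervals lay within -0.21 and 0.21 in each knockout.

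Nr4a1, an orphan nuclear receptor induced by the same signals, showed the largest change above 0 in the Atxn1 knockout, 0.29 (SE 0.18, 95% interval -0.13 to 0.72, adjusted p = 0.9999). Its levels were 11.59, 11.12 and 11.45 in Atxn1 knockouts, against 10.92, 10.91 and 11.46 in their wild types. Wild type replicate 3, the array with the high neutrophil markers, lay among the knockouts, and the other two wild types lay below all 3. Leaving out 1 array gave 0.19 to 0.48, with 0.43 (SE 0.18) without knockout replicate 2 and 0.48 (SE 0.14) without wild type replicate 3, and with array weights in the fit the change was 0.0010. In Atxn1l knockouts the levels were 11.25, 11.36, 10.78 and 10.96, against 10.98, 11.47, 10.57 and 10.93 in their wild types. Highest and lowest were both wild types, and the change was 0.10 (SE 0.18, adjusted p = 0.937).

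Atf3 is an AP-1 and CREB family factor induced by stress. Atxn1 knockouts had 9.40, 9.35 and 9.52, against 9.13, 9.02 and 9.59 in wild types, a change of 0.17 (SE 0.15, adjusted p = 0.9999). Wild type replicate 3 stood above the knockouts, and the other two wild types lay below them. Leaving out 1 array gave 0.06 (without wild type replicate 2) to 0.34 (SE 0.08, without wild type replicate 3). Atxn1l knockouts had 9.29, 9.11, 8.69 and 8.77, against 8.75, 9.23, 8.54 and 8.75 in wild types. The change there was 0.15 (SE 0.16, 95% interval -0.22 to 0.51, adjusted p = 0.875), and it ran from 0.04 (without knockout replicate 1) to 0.28 (without wild type replicate 2) on leaving out 1 array.

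Fos, the inducible partner of Jun in AP-1, was near level in both knockouts. It stood at 8.09, 7.93, 7.85 and 7.82 in Atxn1l knockouts, against 7.97, 8.29, 7.76 and 7.56 in wild types, so that the wild types enclosed all 4 knockouts. The change was 0.03 (SE 0.14, 95% interval -0.27 to 0.33, adjusted p = 0.978). Atxn1 knockouts had 9.55, 9.16 and 8.79, against 9.39, 8.78 and 9.32 in their wild types. Here the change was 0.01 (SE 0.22), and its interval, -0.52 to 0.54, leaves room for a 1.45-fold higher or a 1.44-fold lower level.

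Fosb, a second Fos protein, averaged 7.73 ± 0.15 in Atxn1l knockouts and 7.74 ± 0.11 in their wild types (SD, n = 4 each), a change of -0.01 (SE 0.08, adjusted p = 0.992). The 3 Atxn1 knockouts lay between 8.70 and 8.74 and their 3 wild types between 8.61 and 9.05, a change of -0.08 (SE 0.11). Jun, the DNA-binding partner of Fos, averaged 11.55 ± 0.07 in Atxn1l knockouts and 11.63 ± 0.09 in their wild types, a change of -0.08 (SE 0.06, 95% interval -0.21 to 0.05, adjusted p = 0.773). It averaged 12.17 ± 0.10 in Atxn1 knockouts and 12.11 ± 0.05 in their wild types, a change of 0.06 (SE 0.07). Junb, a Jun protein of lower transforming activity, changed by 0.02 (SE 0.07) in the Atxn1l knockout, at 8.15 to 8.39 in knockouts and 8.15 to 8.36 in wild types. In the Atxn1 knockout its change was -0.06 (SE 0.10), at 9.19 to 9.43 in knockouts and 9.19 to 9.51 in wild types. Ier2, a small nuclear protein induced by growth factors, averaged 8.29 ± 0.12 in Atxn1l knockouts and 8.29 ± 0.13 in their wild types. In the Atxn1 set Ier2 averaged 9.53 ± 0.13 in knockouts and 9.50 ± 0.02 in wild types, a change of 0.04 (SE 0.07). In all 4 genes the ranges of knockouts and wild types shared values.

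**Figure D2:**
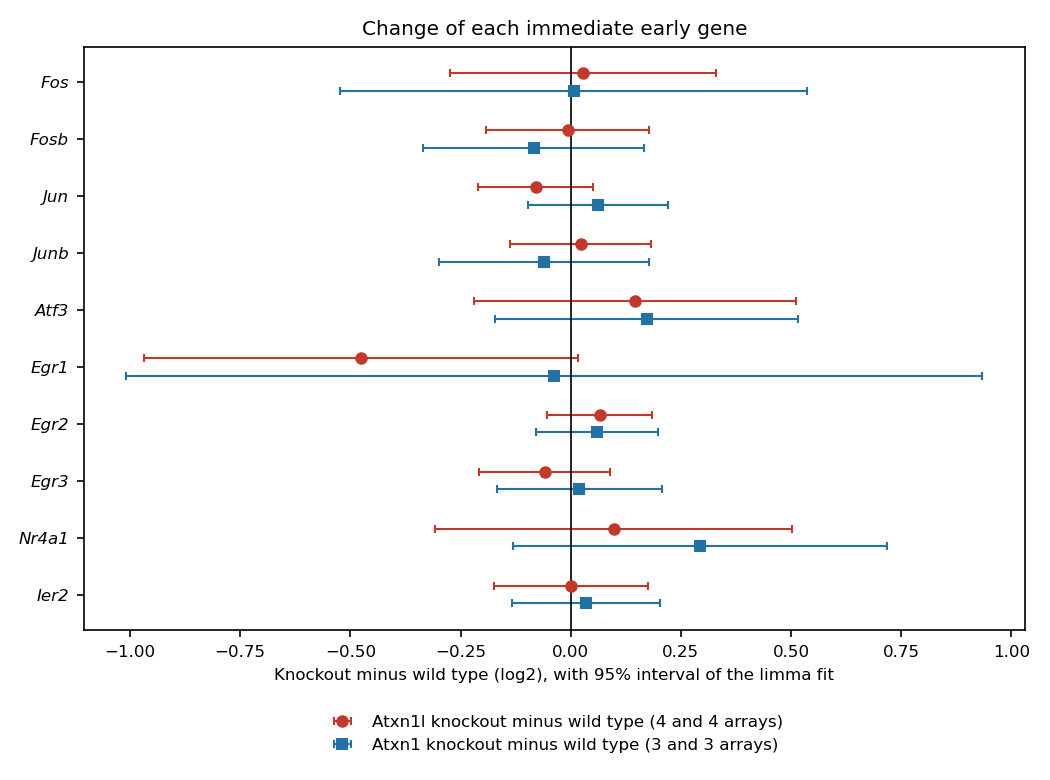
Log2 change of each gene, knockout minus its own wild type (x axis), with the 95% interval of the limma fit, for Atxn1l (circles, 4 and 4 arrays) and Atxn1 (squares, 3 and 3 arrays). Every interval includes 0. Those of Egr2, Egr3, Jun and Ier2 are narrow, and that of Egr1 in the Atxn1 knockout runs from -1.01 to 0.93. Egr2 and Fosb were among the dimmest 40% of probe sets in the Atxn1l set.

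Whether the knockouts differed from each other was tested as the Atxn1l change minus the Atxn1 change, in 1 limma fit of the 14 arrays. None of the 10 genes passed, against 0.00943% of all probe sets, and none had an unadjusted p under 0.05, against 3.24%. The widest difference was that of Egr1, -0.44 (SE 0.48, 95% interval -1.47 to 0.59), followed by Nr4a1 at -0.19 (SE 0.29) and Jun at -0.14 (SE 0.09). The Egr1 difference was -0.04 without Atxn1 knockout replicate 1 and -0.87 without Atxn1 knockout replicate 3. The smallest adjusted p among the 10 was 0.9996.

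The spread between arrays of the same genotype was wide for 4 of the genes and ordinary for the others. In the Atxn1l set the SD within groups was 0.39 for Egr1, 0.32 for Nr4a1, 0.29 for Atf3 and 0.24 for Fos, against a median of 0.0931 over all probe sets. These lay at the 99.2nd, 98.6th, 98.0th and 96.4th percentile of all probe sets. In the Atxn1 set the same 4 genes led, with 0.66 for Egr1, 0.36 for Fos, 0.28 for Nr4a1 and 0.22 for Atf3, against a median of 0.0890. Only 50 of the 21212 probe sets spread more than Egr1 there. Among probe sets within 0.5 log2 units of their own level, the 4 genes lay at the 94.5th percentile or above in both sets. Egr2 sat low, at the 23.3rd percentile in the Atxn1l set and the 29.1st in the Atxn1 set, and Jun at the 35.7th and 45.2nd. Between the highest and lowest array of a set, Egr1 differed 2.40-fold among the 8 arrays of the Atxn1l set and 3.15-fold among the 6 of the Atxn1 set. These values describe single probe sets and carry no test.

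**Figure D3:**
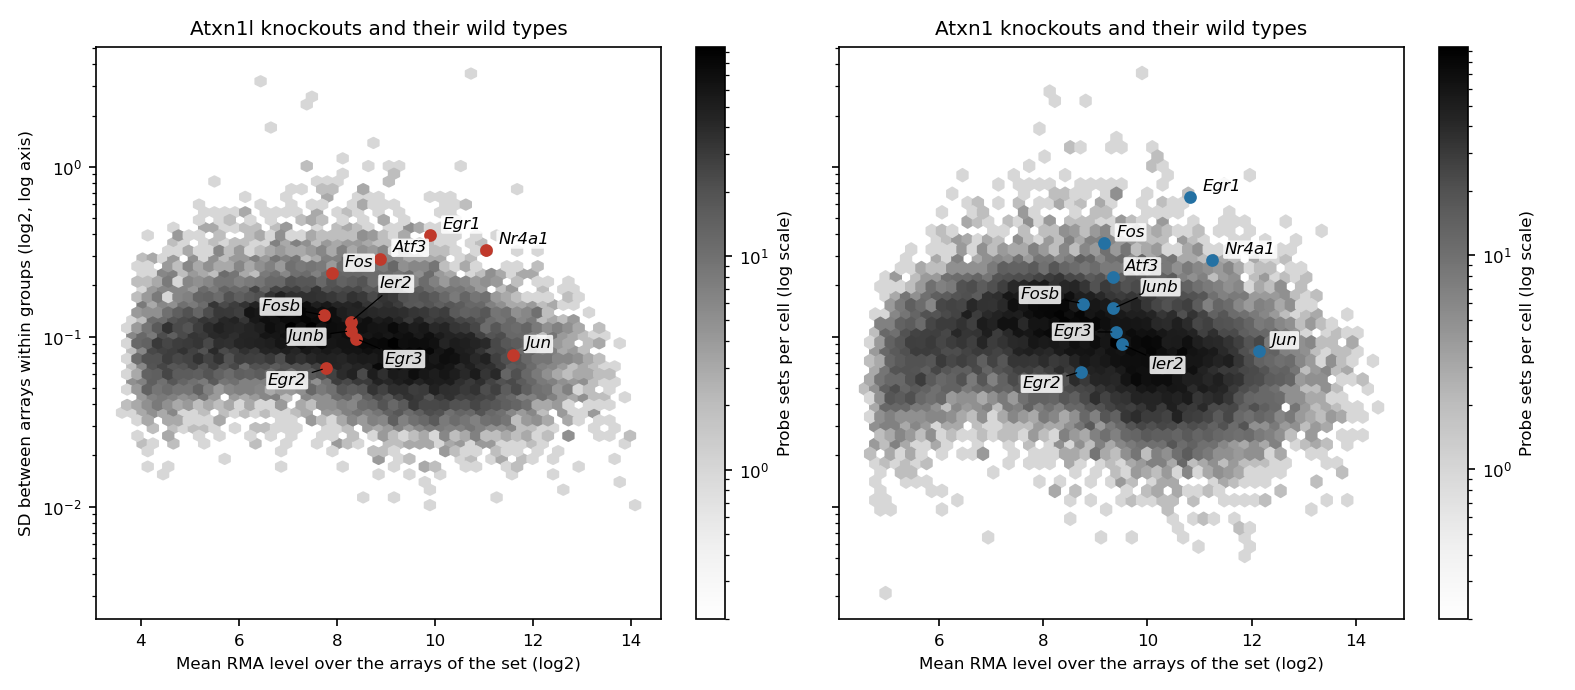
SD between arrays within groups (y axis, log scale) against mean log2 level (x axis) of all 21212 probe sets (grey cells, darker for more probe sets), with the 10 immediate early genes as coloured points, in the Atxn1l set (left) and the Atxn1 set (right). Egr1, Nr4a1, Atf3 and Fos lie along the upper edge in both panels, and Egr2 lies low.

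On several arrays most of the genes lay on 1 side of their group mean. Taking each array's level minus the mean of its group, Atxn1l knockout replicate 2 had all 10 genes above its group mean and replicate 4 had all 10 below. Knockout replicate 3 had 7 below. Among the Atxn1l wild types, replicate 2 had 9 above, and replicates 3 and 4 had 8 and 9 below. Replicates 2, 3 and 4 of this set thus leaned the same way in knockout and wild type, and replicate 1, with 6 and 4 above, did not. Among the Atxn1 knockouts replicate 1 had 8 above, and among their wild types replicate 2 had 9 below. Replicates 1 and 2 leaned alike there, and replicate 3, with 4 above in the knockout and 7 in the wild type, did not. Whether arrays of 1 number were collected together is not given, and a scatter shared by them was not tested. Probe sets as a whole leaned on some of these arrays too. Of all probe sets, 53.2% lay above the group mean on Atxn1l knockout replicate 2, 53.0% on replicate 3 and 36.8% on replicate 4. Among the Atxn1l wild types the share was 55.3% on replicate 2, 60.3% on replicate 3 and 42.7% on replicate 4, and it was 45.8% on Atxn1 knockout replicate 1 and 41.6% on Atxn1 wild type replicate 2. The part of this array-wide lean in the counts was not tested. Of the 45 pairs of genes, 39 had a positive correlation of these deviations over the 14 arrays, with a median r of 0.36 and a range of -0.44 to 0.90. Beside this, 12400 of all 21212 probe sets had r above 0 with the mean deviation of the 10 genes. That number was 12527 with Fos, 12107 with Egr1 and 9417 with Nr4a1. A like r could be common or rare: for Fosb, Egr3 (r = 0.74) ranked 2926th of 21211 other probe sets, and for Fos, Junb (r = 0.75) ranked 54th. Deviations within a group sum to 0, so the 14 points are not independent, and r is given as a description.

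**Figure D4:**
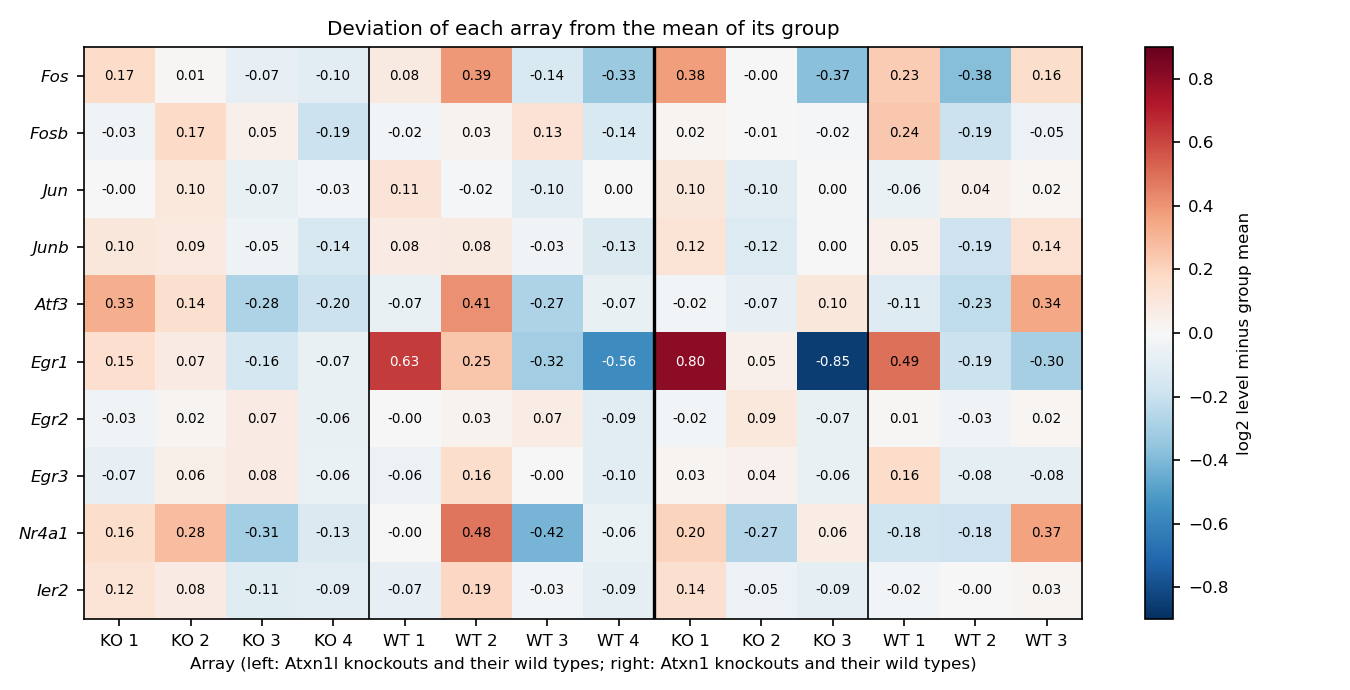
Deviation of each array (columns, knockout before wild type, Atxn1l set left of the thick line) from the mean of its own group, in log2 units, for each gene (rows). Red is above and blue below the group mean. Columns tend to 1 colour, as in the Atxn1l knockouts 2 and 4, and Egr1 and Nr4a1 hold the strong colours on different arrays.

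The pairs among the 4 genes with wide spread are given next. Of all 21211 other probe sets, Atf3 ranked 4th by its likeness to Nr4a1 (r = 0.90 over the 14 deviations), and Nr4a1 ranked 12th for Atf3. In levels, over the 8 arrays of the Atxn1l set, Pearson's r was 0.93 (exact permutation p = 0.0018, adjusted p = 0.0804 over the 45 pairs) and Spearman's rho 0.86 (exact permutation p = 0.0107, adjusted p = 0.241). Without the 2 arrays farthest from the median Atf3 level, r was 0.98. Over the 6 arrays of the Atxn1 set r was 0.87 (exact permutation p = 0.0347, adjusted p = 0.785) and rho 0.83 (exact permutation p = 0.0583, adjusted p = 0.755). There r was 0.46 without the 2 arrays farthest from the median Atf3 level. Too few arrays remain then to tell whether the relation in that set rests on those 2. Of the 45 pairs of a set, 9 had an exact permutation p under 0.05 in the Atxn1l set and 1 in the Atxn1 set, and 0 passed adjustment in either.

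Fos was the nearest of the other 9 genes to Egr1 over the 14 deviations, but not in the levels of the Atxn1l set. For Egr1, Fos ranked 30th of all other probe sets (r = 0.79 over the 14 deviations), and for Fos, Egr1 ranked 24th. In levels the r of Fos with Egr1 was 0.58 over the 8 arrays of the Atxn1l set (exact permutation p = 0.146, adjusted p = 0.438), with rho 0.57 (exact permutation p = 0.151, adjusted p = 0.453). This r was 0.36 without the 2 arrays farthest from the median Fos level. Over the 6 arrays of the Atxn1 set it was 0.81 (exact permutation p = 0.0569, adjusted p = 0.785), with rho 0.71 (exact permutation p = 0.136, adjusted p = 0.755), and 0.76 without the 2 farthest. In the Atxn1l set Fos had a larger r with Atf3, 0.75 (exact permutation p = 0.0264, adjusted p = 0.198; rho 0.64, exact permutation p = 0.0962, adjusted p = 0.333; 0.84 without the 2 farthest arrays), than with Egr1. With Nr4a1 it was 0.72 (exact permutation p = 0.0407, adjusted p = 0.226; rho 0.81, exact permutation p = 0.0218, adjusted p = 0.245; 0.76 without the 2 farthest arrays). The deviations of Fos in that set had r of 0.76 with Atf3, 0.72 with Nr4a1 and 0.76 with Egr1, and over the 14 arrays Fos and Nr4a1 had r = 0.53. In the Atxn1l set Egr1 had an r of 0.72 with Jun (exact permutation p = 0.0411, adjusted p = 0.226), with rho 0.52 (exact permutation p = 0.197, adjusted p = 0.520). This r was 0.14 without the 2 arrays farthest from the median Jun level, so that it depends on them. Leaving them out also narrows the range of Jun. The r of Egr1 with Nr4a1 was 0.20 over the 14 deviations, at 0.50 in the Atxn1l set and -0.09 in the Atxn1 set. Leaving out each array in turn gave 0.85 to 0.94 for Nr4a1 with Atf3, 0.71 to 0.88 for Egr1 with Fos and 0.06 to 0.35 for Nr4a1 with Egr1. Without the 2 arrays of high neutrophil markers these were 0.92, 0.88 and 0.33. The difference between the correlations was not tested. In the Atxn1l set both Egr1 and Fos were higher on the 3 arrays with low Xist than on the 5 with high Xist. Egr1 stood at 9.82 to 10.78 against 9.51 to 9.83, and Fos at 7.97 to 8.29 against 7.56 to 7.93. In the Atxn1 set the ranges overlapped for both genes. Taking off the group mean does not remove such a difference, and its part in the r of Egr1 with Fos was not tested. Arrays of like Xist level numbered 3 to 5 in a set, fewer than the 6 taken as the least for a correlation.

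**Figure D5:**
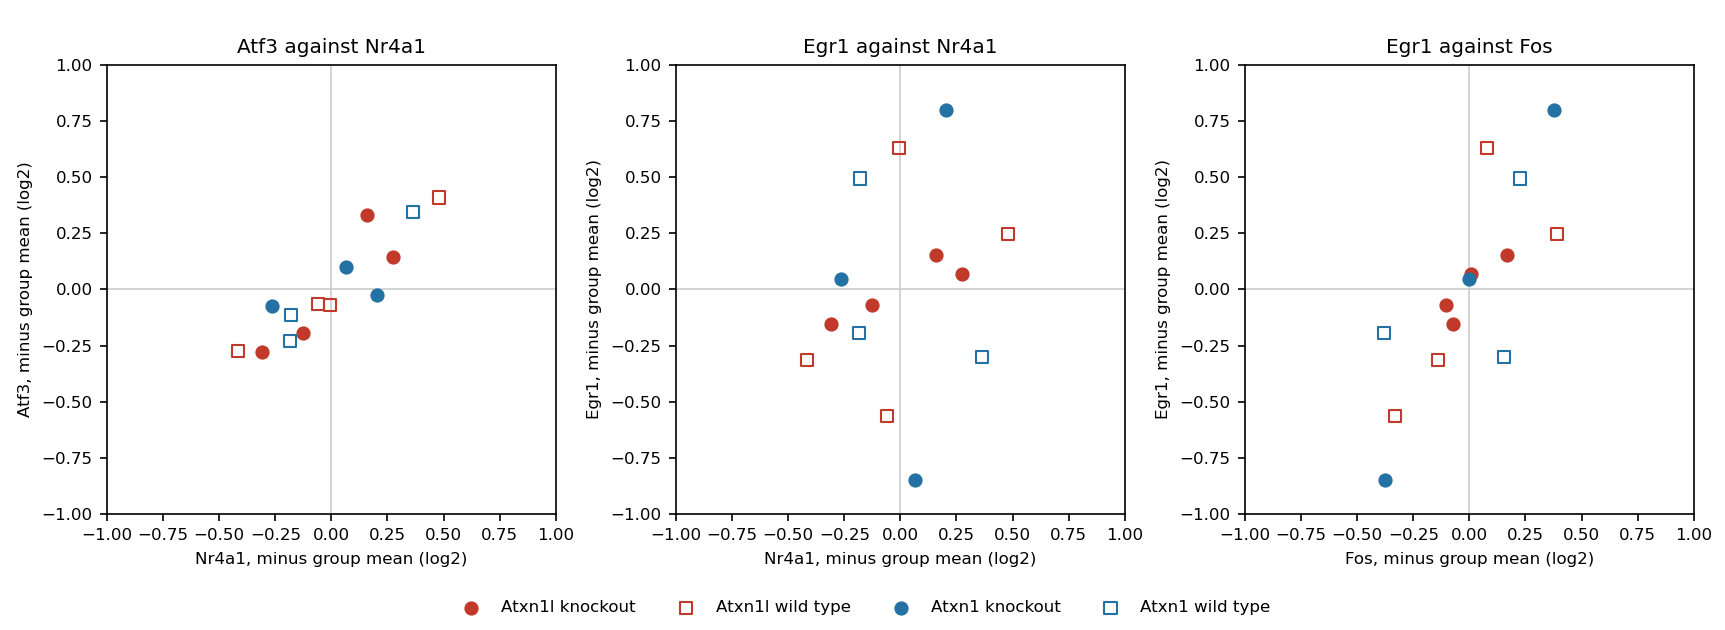
Deviation from the group mean (log2, both axes) on the 14 arrays, for Atf3 against Nr4a1 (left), Egr1 against Nr4a1 (middle) and Egr1 against Fos (right). Filled circles are knockouts and open squares wild types, red for Atxn1l and blue for Atxn1. The left panel forms a line (r = 0.90), the middle panel is a cloud (r = 0.20), and the right panel rises (r = 0.79).

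Further immediate early genes were set against Nr4a1, Egr1 and Fos in the same way. Of 40 further such genes, 27 had r over 0.5 with Nr4a1, or 67.5%, against 5.77% of all probe sets. An r over 0.7 with Nr4a1 was found for 18, or 45.0%, against 1.06%. Of the same 40, 3 had r over 0.5 with Egr1, or 7.5%, against 5.35% of all probe sets. The same 3 had r over 0.7, against 0.60%. With Fos there were 8 of 40 over 0.5, or 20.0%, against 7.34%, and 2 over 0.7, or 5.0%, against 0.62%. The count over 0.5 with Nr4a1 was 25 to 27 on leaving out each array. The count over 0.5 with Egr1 was 3 or 4, apart from 6 without Atxn1 wild type replicate 1 and 7 without Atxn1 wild type replicate 3.

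Among the genes closest to Nr4a1, named after their values were seen, were Btg2, an antiproliferative gene (r = 0.93), Nfkbiz, an atypical nuclear IkB protein (0.92), Sik1, a salt-inducible kinase (0.90), and Dusp1, a phosphatase of MAP kinases (0.89). Its own relatives Nr4a2 and Nr4a3 had r of 0.84 each, and the clock gene Per1, also a CREB target, 0.86. Moving against Nr4a1 were Nab2, the co-repressor that binds Egr proteins (-0.85), Gadd45b, a stress sensor (-0.79), and Ier5 (-0.73). The 3 genes with r over 0.5 with Egr1 were Ptgs2, the inducible cyclooxygenase (r = 0.80), Ccn1, a matricellular protein (0.78), and Zfp36, which destabilises mRNA (0.71). Zfp36 and Ccn1 also had r of 0.62 and 0.69 with Nr4a1.

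Of all named genes outside the 10, Ccn1 came closest to their mean deviation, with r = 0.94 over the 14 arrays and 0.93 to 0.95 on leaving out each array. The next were Eif4ebp3, a binding protein of the cap-binding factor (0.88), Nhlrc4 (0.85), Galt, an enzyme of galactose metabolism (0.85), and the linker histone gene H1f2 (0.85). Gm884 (0.84), the olfactory receptor genes Olfr781, Olfr1057 and Olfr488 (0.84, 0.84 and 0.83) and Ing2 (0.82) completed the nearest 10. Of these 10, only Ccn1 was on the list of 40 immediate early genes.

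The neutrophil marker mean had r of 0.63 with Nr4a1 and 0.00 with Egr1 over the 14 deviations. Without the 2 arrays of high neutrophil markers r with Nr4a1 was 0.64, and it was 0.48 to 0.71 on leaving out each array. With Egr1 it was 0.31 without these 2 arrays. All 7 neutrophil markers were measured and lay between the 40.9th and 97.3rd percentile of all probe sets, and their part in the Nr4a1 values was not tested. The mean of 4 alveolar type 1 markers had r of 0.65 with the mean deviation of the 10 genes and 0.61 with Nr4a1, although it moved only between 11.62 and 11.75 in Atxn1l knockouts and 11.63 and 11.73 in their wild types. Macrophage markers had r of 0.24 with Nr4a1.

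No gene of the wider immediate early list passed in the knockouts. Of the 40, 0 were called in either comparison. A change above 0 was found for 27 in the Atxn1l knockout, or 67.5%, against 51.3% of all probe sets. In the Atxn1 knockout it was 24, or 60.0%, against 47.3%, and the median was 0.03 in both. An unadjusted p under 0.05 was found for 4 of 40 in the Atxn1l knockout, against 8.50% of all probe sets, and for 0 in the Atxn1 knockout, against 1.22%. Those 4 were Pim1, a serine kinase induced by cytokines (0.30, SE 0.06, adjusted p = 0.251), Socs3, the feedback inhibitor of cytokine receptors (0.22, SE 0.07, adjusted p = 0.420), Ccn2, a matricellular relative of Ccn1 (0.22, SE 0.09, adjusted p = 0.577), and Cebpb, a bZIP factor (0.11, SE 0.05, adjusted p = 0.556). Neutrophil and macrophage marker means, given above, were higher in all 4 Atxn1l knockouts than in all their wild types, and their part in these values was not tested. In the Atxn1 knockout, Pim1 changed by 0.01 (SE 0.12) and Socs3 by -0.25 (SE 0.25). The smallest p there was that of Gadd45b, at -0.17 (SE 0.08, adjusted p = 0.9999), followed by Nr4a2, at 0.16 (SE 0.10).

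Upstream kinases and factors gave no call. Of 21 measured genes, among them Srf, the ETS factors Elk1, Elk3 and Elk4, Creb1 and the MAP kinases, 0 were called in either knockout. In the Atxn1l knockout 10 were above 0, or 47.6%, against 51.3% of all probe sets, with a median of -0.01. An unadjusted p under 0.05 was found for 3 of the 21, against 8.50% of all probe sets. These were Mrtfa, an actin-sensing partner of Srf (0.14, SE 0.05, adjusted p = 0.423), Creb1 (-0.12, SE 0.05, adjusted p = 0.578) and Rps6ka3, a kinase below ERK (-0.11, SE 0.05, adjusted p = 0.578). In the Atxn1 knockout 17 of the 21 were above 0, or 81.0%, against 47.3% of all probe sets, with a median of 0.03. There 0 had an unadjusted p under 0.05, against 1.22% of all probe sets. The lean of this list above 0 was not tested.

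Among 9 measured AP-1 partners and Egr co-repressors 0 were called in either knockout. Batf, a bZIP partner of Jun in lymphocytes, changed by 0.10 (SE 0.05, adjusted p = 0.639) in the Atxn1l knockout and by 0.17 (SE 0.06, adjusted p = 0.9999) in the Atxn1 knockout. Atf2, a bZIP partner that binds Jun, changed by -0.10 (SE 0.05) in the Atxn1l knockout. The 10 genes of the integrated stress response, which can induce Atf3 through Atf4, had medians of 0.00 and -0.02 in the Atxn1l and Atxn1 knockouts, and 0 were called. Xbp1 changed by -0.07 (SE 0.05) in the Atxn1l knockout and by -0.07 (SE 0.07) in the Atxn1 knockout. Hspa5 changed by 0.05 (SE 0.05) and -0.08 (SE 0.06) in these knockouts. Ddit3, a stress-induced bZIP factor, changed by -0.06 (SE 0.05) and -0.02 (SE 0.06). Of 8 measured heat shock genes 5, or 62.5%, were above 0 in the Atxn1l knockout, against 51.3% of all probe sets. In the Atxn1 knockout 1, or 12.5%, was above 0, against 47.3%, and 0 were called in either knockout. Dnajb1, a co-chaperone, changed by -0.08 (SE 0.06) in the Atxn1l knockout and -0.01 (SE 0.05) in the Atxn1 knockout. An r over 0.5 with Nr4a1 was found for 2 of the 10 stress response genes and 0 of the 8 heat shock genes, against 5.77% of all probe sets. Ppp1r15a, a phosphatase subunit that ends the stress response, stood on both the stress and the immediate early list.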

How the data were processed

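Total RNA of 14 lungs, 100 ng per array, was measured on Affymetrix mouse Gene ST 1.0 arrays. The deposited values are log2 levels made by the authors with RMA, per the submitters' processing notes, separately for the 8 arrays of the Atxn1l set and the 6 of the Atxn1 set, per the series text. Each probe set stands for 1 Entrez gene, and the sources used here do not give the definition's version. No value was changed or filtered before the main tests. Knockout and own wild type were compared in limma 3.58.1 (R 4.3.3; lmFit and eBayes, no covariate, two-sided) over 21212 probe sets, with Benjamini-Hochberg adjustment over all of them. The difference between the knockouts was a contrast in 1 fit of 4 group means. SE and 95% intervals are those of the fit, SD is between arrays.

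Array deviations are levels minus the group mean. Correlations of levels were tested by exact permutation within a set (40320 orders of 8 arrays, 720 of 6), two-sided. Percentiles compare a probe set with all others or with those within 0.5 log2 units of its level. Names come from the platform's gene table and RefSeq, and 4 of the listed genes were not matched. The 10 genes and the further lists were chosen with earlier results of these data known. The genes named were all 10, up to 3 of smallest p from each list in either comparison, and the 10 named genes nearest to the mean deviation of the 10. From the wider immediate early list, all 4 genes with an unadjusted p under 0.05 in the Atxn1l knockout were named. Other exceptions are stated where they occur. Limma was tested on simulated data. Alternatives were a replicate block, another eBayes prior, array weights, a covariate for sex from Xist, a filter on the dimmest 40% of probe sets, quantile normalization of all arrays together, centring on the median, cyclic loess and leaving out each array. For the pattern across arrays, leaving out the 2 arrays of high neutrophil markers, or each array in turn, was chosen after seeing the data.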

Additional observations from a re-analysis of the deposited data

How the results depend on the processing

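In the Atxn1l and Atxn1 knockouts, 0 of the 10 genes were called under each alternative run, of which the filter on dim probe sets tested 8 for Atxn1l. For their difference 0 were called with the replicate block, array weights, joint quantile normalization and on leaving out each array, and the other alternatives were not run. An unadjusted p under 0.05 was reached for Atxn1l by 1 gene, Egr1, with the replicate block, array weights, the Xist covariate, median centring and without wild type replicate 3 or 4. For Atxn1 it was reached by 2, Nr4a1 and Atf3, without wild type replicate 3. The smallest adjusted p of a gene was 0.389 for Atxn1l (Egr1, replicate block), 0.264 for Atxn1 (Junb, array weights) and 0.520 for the difference (Jun, array weights). The same-numbered arrays correlated at 0.09, 0.04, 0.23 and 0.38 in the Atxn1l set and at 0.00, -0.42 and 0.42 in the Atxn1 set. Arrays of different number correlated at -0.24 to 0.25 in the Atxn1l set and at -0.37 to 0.37 in the Atxn1 set. A replicate block lowered the SE of each of the 10 genes for Atxn1l, for Egr1 from 0.22 to 0.15 and for Nr4a1 from 0.18 to 0.07. For Atxn1 some SEs fell and others rose. Whether the number marks a collected pair was not tested, and the main tests do not use the number. With it as a replicate block, the median change of the 10 genes was 0.01 for Atxn1l, 0.03 for Atxn1 and -0.03 for the difference, and over all probe sets 2 instead of 9 were called for Atxn1l and 1 instead of 2 for the difference. Other such counts for Atxn1l were 17 with the Xist covariate, 6 with the filter on dim probe sets, which left out Fosb and Egr2, and 2 to 25 on leaving out each array; with array weights 1 was called for Atxn1 and 4 for the difference. The cause was not tested. The median change of the 10 genes was -0.01 for Atxn1l with joint quantile normalization or median centring and 0.05 with the Xist covariate, and 0.03 for the difference with array weights. Without 1 array, this median ran from -0.04 to 0.06 for Atxn1l, -0.01 to 0.09 for Atxn1 and -0.10 to 0.02 for the difference.

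Signs turned only in changes that were not called. For Atxn1l this was Fosb (0.0091) and Ier2 (-0.025) with array weights, Junb (-0.0031) and Ier2 (-0.026) with joint quantile normalization, Junb (-0.0017) and Ier2 (-0.024) with median centring, and Ier2 (-0.0096) with cyclic loess. For Atxn1 it was Fos (-0.13), Atf3 (-0.11) and Egr1 (0.21) with array weights, and Egr1 (0.24) with the Xist covariate. For the difference it was Atf3 (0.16) and Nr4a1 (0.019) with array weights, and Egr2 (-0.044) with joint quantile normalization. On leaving out 1 array, the changes whose sign turned ran from -0.082 to 0.16 (Fos), -0.065 to 0.056 (Fosb), -0.020 to 0.069 (Junb), -0.041 to 0.26 (Nr4a1) and -0.041 to 0.063 (Ier2) for Atxn1l. The Atxn1 changes ran from -0.18 to 0.19 (Fos), -0.18 to 0.036 (Fosb), -0.15 to 0.0078 (Junb), -0.44 to 0.39 (Egr1), -0.021 to 0.10 (Egr3) and -0.036 to 0.080 (Ier2). The differences ran from -0.16 to 0.21 (Fos), -0.044 to 0.17 (Fosb), -0.20 to 0.11 (Atf3), -0.030 to 0.051 (Egr2) and -0.080 to 0.036 (Ier2).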

Other observations

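The genes nearest to Egr1, Fos and Nr4a1 were looked up after their values were seen. For Egr1 they were led by Cmtm8, a membrane protein of the chemokine-like factor family (r = 0.91 over the 14 deviations), Olfr1136, an olfactory receptor gene (0.90), and Ttll5, a tubulin glutamylase (0.87). For Fos they were led by the olfactory receptor genes Olfr781 (0.91) and Olfr165 (0.90), with Ccn1 at 0.83 the only gene of the immediate early list among the nearest 10. The nearest 10 of Nr4a1 held 5 such genes: Btg2, Nfkbiz, Sik1, Dusp1 and, from the genes described above, Atf3. The other 5 were the olfactory receptor genes Olfr170 (0.91) and Olfr171 (0.88), Usp32, Sf3b1 and Acvr2a.

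Fos was higher on the arrays with low Xist in the Atxn1l set, at 7.97 to 8.29 on the 3 low arrays and 7.56 to 7.93 on the 5 high ones, without overlap. In the Atxn1 set the ranges were 8.78 to 9.55 on the 3 low and 8.79 to 9.32 on the 3 high arrays. Nr4a1 overlapped in both sets, at 10.98 to 11.47 on low and 10.57 to 11.36 on high arrays of the Atxn1l set. No test was run on these groups of arrays, which the labels do not define. How many of all probe sets separate the low from the high arrays was not counted.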
